A study of Mus musculus with 15 samples.

Results

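The comparison described here is that of ventral skin labelled K14-PTHrP (3 arrays) with ventral skin labelled VentralSkin_WT (3 arrays), which are 6 of the 15 arrays in the series. The arrays were taken by their group labels, so no measured value chose them. K14-PTHrP skin came from transgenic embryos in which the keratin 14 promoter drives parathyroid hormone-related protein (PTHrP) in basal keratinocytes. WT skin came from embryos without the transgene, and so did the skin labelled K14WT (3 arrays), which the labels name as the control of the transgenic skin and which stands beside both groups as a further control. All embryos were of the CD-1 strain and were dissected on embryonic day 15, and tissue of the same genotype was pooled before RNA was isolated. The labels give neither the number of embryos in a pool nor the number of pools behind a group, so the spread that the p-values rest on may be partly technical. The other 6 arrays, of WT and PTHrP-/- mammary buds, entered the fit for its estimate of the spread.

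PTHrP is a secreted peptide, the product of Pthlh, that binds the G protein-coupled receptor Pth1r and raises cyclic AMP in the responding cell. In the mouse embryo the epithelium of the mammary bud secretes it and the mesenchyme around the bud carries the receptor, and this exchange turns ordinary dermal mesenchyme into mammary mesenchyme. K14-PTHrP mice are known for ventral skin that takes on features of nipple skin, a process in which PTHrP is known to act together with bone morphogenetic protein (BMP) signalling.

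Levels are log2 expression values after GC-RMA, a background correction and normalization for Affymetrix arrays, and differences are K14-PTHrP minus WT skin in log2 units unless another pair is named. The transgenic skin carried more RNA for the neuropeptide precursor Tac1, the imprinted gene Nnat, the transcription factor Sim2 and the matrix proteoglycan Vcan. It carried less for the adhesion receptor Vcam1, the growth factor Ccn2, the neuropeptide-degrading enzyme Mme and the hedgehog receptor Ptch1. Of 11563 probe sets tested, 148 passed an adjusted p of 0.05 (1.28%), 48 of them higher (0.415%) and 100 lower (0.865%) in K14-PTHrP skin. Centring each array on its median gave 72 higher and 84 lower, and quantile normalization gave 63 higher and 72 lower. The median difference over all probe sets was -0.053. In all 148 the arrays of the 2 groups did not overlap, which held for 13.8% of all probe sets tested.

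Only probe sets on the authors' 4 deposited lists carried a gene name here, so 58 of the 148 had a name and 90 had none (31 higher and 59 lower). With each gene read by its brightest probe set, 51 of 1878 named genes passed (2.72%), 14 higher (0.745%) and 37 lower (1.97%). The authors chose 2 of the lists on these WT skin arrays against WT buds. Of the 37 lower genes, 18 stood on their list of probe sets higher in WT skin than in WT buds, which holds 258 of the named genes, and of the 14 higher ones 8 stood on their list of lower ones, which holds 165. The names are therefore not an even sample of the transcripts measured.

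The transgenic arrays differed among themselves. Replicate 3 of K14-PTHrP skin correlated across probe sets with the WT skin arrays at 0.9817 to 0.9871, and with the other arrays of its own group at 0.9750 and 0.9635. Replicate 1 of K14-PTHrP skin correlated most closely with replicate 1 of K14WT skin, at 0.9905. The median SD within a group was 0.203 in K14-PTHrP skin, against 0.125 in WT skin, and 0.179 in K14WT skin. The gap between the Gapdh control probe sets near the 3' and the 5' end of the transcript, a sign of RNA quality, was 0.295, 0.436 and 1.19 log2 units in K14-PTHrP skin, against 0.824, 0.664 and 0.912 in WT skin. The control probe set at the 5' end of 18S ribosomal RNA was at 12.50, 7.11 and 8.74 in K14-PTHrP skin, against 7.44, 8.02 and 7.92 in WT skin and 10.18, 10.40 and 10.42 in K14WT skin. Replicates 1 and 3 of K14-PTHrP skin and all K14WT arrays thus lay above every WT skin array, and replicate 2 of K14-PTHrP skin lay below them. The part of RNA quality and of ribosomal RNA in the results, those that follow the choice of wild-type skin included, was not tested. Without replicate 3 of K14-PTHrP skin, 1508 probe sets passed (405 higher, 1103 lower), and without replicate 1 of K14-PTHrP skin 84 passed. Without replicate 1 or 2 of WT skin, 63 or 69 passed. All 31 genes past the threshold that the naming rule selected also passed without replicate 3 of K14-PTHrP skin. So many more probe sets passed in that setting that this says little about a gene.

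At 134 further probe sets, 127 of which met the filter on dim signals, the 3 WT skin arrays lay more than 0.5 log2 units from all 12 other arrays, 67 lower and 67 higher. These were left out of the comparison. WT and K14WT skin differed there by a median of 3.78 log2 units probe set by probe set, and by a median of 0.111 once the levels of each were sorted. Whether the WT skin values stand beside the right probe sets was not tested, there or elsewhere in the table. A gap of that size set the K14-PTHrP arrays apart from all 12 others at 24 probe sets and the K14WT arrays at 1.

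Markers of skin were present in both groups. Krt14, the keratin of basal keratinocytes whose promoter drives the transgene, was at 10.93, 11.25 and 11.51 in K14-PTHrP skin, against 11.14, 11.41 and 11.12 in WT skin. The difference was 0.01 ± 0.16 (SE, n = 3 per group, adjusted p = 0.998). Krt1, a keratin of the differentiating layers, was at 12.47 to 12.77 in K14-PTHrP skin, against 12.40 to 12.68 in WT skin (difference 0.03 ± 0.15, adjusted p = 0.979). None of 7 measured markers of basal keratinocytes and none of 13 genes of epidermal differentiation passed in either direction. Differences ran from -0.96 to 0.40 in the first list (smallest adjusted p = 0.0554). In the second they ran from -0.78 to 0.52 (smallest adjusted p = 0.0538). Beside these and the later counts of list members stands the share of all named genes that passed, 2.72% (0.745% higher and 1.97% lower).

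**Figure D1:**
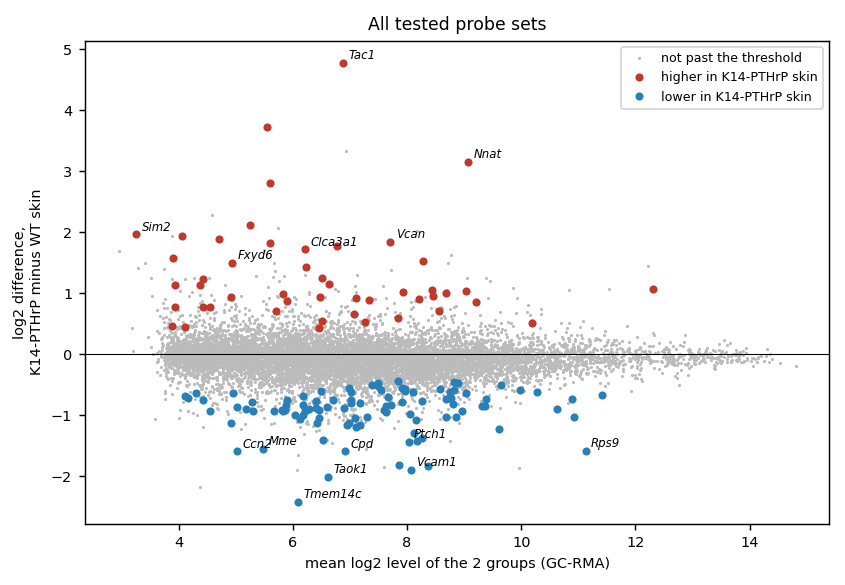
Each point is a probe set among the 11563 tested, with the mean log2 level of the 2 groups on the horizontal axis and the log2 difference, K14-PTHrP minus WT skin, on the vertical axis. Red points passed the test as higher (48) and blue points as lower (100) in K14-PTHrP skin, and Tac1 lies at the top with 4.78.

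The ligand and its receptor did not pass the test. Pthlh was at 3.60, 3.64 and 3.39 in K14-PTHrP skin, against 3.82, 3.36 and 3.46 in WT skin, and the levels of both groups lay below the median of each array. The difference was -0.0024 ± 0.24 (adjusted p = 1, 95% confidence interval -0.53 to 0.52). K14WT skin was at 4.16 ± 0.26 (SD, n = 3). The labels and files do not place the single Pthlh probe set on the transcript or on the transgene's sequence, so the label could not be checked with it.

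Pth1r was at 7.89, 7.71 and 9.09 in K14-PTHrP skin, against 9.09, 9.36 and 9.35 in WT skin. The highest transgenic array, replicate 3, lay beside the lowest WT array and the other 2 lay well below it. The difference of -1.04 ± 0.30 did not pass (adjusted p = 0.127), and without replicate 3 of K14-PTHrP skin it was -1.47 and passed (adjusted p = 0.00141). Against K14WT skin the difference was 0.26 ± 0.30 (adjusted p = 0.731), and K14WT skin itself was 1.29 lower than WT skin on the log2 scale (-1.29 ± 0.30, adjusted p = 0.0294). In bulk tissue, fewer cells of a type and less RNA per cell cannot be told apart. None of the 7 measured genes of the PTHrP and cyclic AMP list passed by its brightest probe set. Ramp2, an accessory protein of peptide hormone receptors, had a difference of -1.43 ± 0.38 (adjusted p = 0.0913) by its brightest probe set. Of its other probe sets 2 passed, with -1.82 ± 0.28 (adjusted p = 0.0062) and -1.84 ± 0.38 (adjusted p = 0.0325), and by these K14WT minus WT skin was -2.07 ± 0.28 and -2.40 ± 0.38.

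Among neuropeptides and the enzymes that cut them, Tac1 had the largest difference of all 11563 probe sets. Tac1, the precursor of substance P and neurokinin A, was at 9.12, 9.95 and 8.74 in K14-PTHrP skin, against 4.57, 4.41 and 4.48 in WT skin and 4.69, 4.98 and 4.63 in K14WT skin. Every transgenic array lay far above every wild-type skin array. The wild-type skin levels lay near the array medians, so the size of the differences is not exact. The difference from WT skin was 4.78 ± 0.25 (adjusted p = 4.2e-07), a 27.5-fold higher level, and that from K14WT skin was 4.4997 ± 0.25 (adjusted p = 9.03e-07). Mammary buds were at 5.71 ± 0.41 in WT and 4.65 ± 0.06 in PTHrP-/- embryos (SD, n = 3 each).

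The promoter of Tac1 is shown because this gene carried the strongest change, that of Nnat because it was next among named genes, and that of Ptch1 because it was the lower gene with the smallest adjusted p. Each runs from 250 bases before to 50 bases after the gene's start, 5′ to 3′ on the strand of the gene, from RefSeq on GRCm38.p6. Tac1 is at chr6:7554811-7555110 (plus strand), Nnat at chr2:157559828-157560127 (plus strand) and Ptch1 at chr13:63565686-63565985 (minus strand). Capitals mark TGACG, the core of the cyclic AMP response element, on either strand (CGTCA when read on the opposite strand).
Tac1 promoter: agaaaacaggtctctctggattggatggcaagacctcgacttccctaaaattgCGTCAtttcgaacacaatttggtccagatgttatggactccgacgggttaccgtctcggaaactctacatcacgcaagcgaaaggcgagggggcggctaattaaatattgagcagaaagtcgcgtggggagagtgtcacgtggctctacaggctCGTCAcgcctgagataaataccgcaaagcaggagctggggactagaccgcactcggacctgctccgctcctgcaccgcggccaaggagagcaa
Nnat promoter: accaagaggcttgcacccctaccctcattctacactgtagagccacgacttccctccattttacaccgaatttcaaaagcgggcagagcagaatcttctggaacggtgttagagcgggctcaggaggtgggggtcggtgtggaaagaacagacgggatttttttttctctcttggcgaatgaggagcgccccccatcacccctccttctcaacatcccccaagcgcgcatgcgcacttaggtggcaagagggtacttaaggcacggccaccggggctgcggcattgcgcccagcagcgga
Ptch1 promoter: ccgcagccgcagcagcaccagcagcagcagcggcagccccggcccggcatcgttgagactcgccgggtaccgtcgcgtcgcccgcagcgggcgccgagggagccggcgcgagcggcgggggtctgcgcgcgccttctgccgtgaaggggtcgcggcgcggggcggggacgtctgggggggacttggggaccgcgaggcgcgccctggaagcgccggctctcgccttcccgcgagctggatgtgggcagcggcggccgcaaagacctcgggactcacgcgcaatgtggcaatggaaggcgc
The core occurred at 2 places in the Tac1 window, starting 197 and 43 bases before the gene's start, and in neither of the other windows. It occurs in 20.8% of the 32851 mouse promoter windows of the same length, and at least 1 window of 5 of the 22 genes named by rule that have one holds it. The whole element, TGACGTCA, is in 1.79% of windows and in none of these 3. The motif GACCACCCA of the hedgehog effectors of the GLI family, searched on both strands, is in 0.253% of windows and not in that of Ptch1.

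Mme, neprilysin, a membrane peptidase that degrades substance P and enkephalins, went the other way. It was at 4.81, 4.41 and 4.87 in K14-PTHrP skin, against 6.64, 5.98 and 6.14 in WT skin and 6.61, 5.88 and 6.74 in K14WT skin, with no overlap. It was 2.94-fold lower than in WT skin (-1.55 ± 0.27, adjusted p = 0.0127), and the difference from K14WT skin was -1.71 ± 0.27 (adjusted p = 0.00794). Penk, the precursor of the enkephalins, was at 8.19, 8.31 and 8.61 in K14-PTHrP skin, against 9.15, 9.07 and 9.07 in WT skin. The groups did not overlap, and the fall was 0.73 on the log2 scale (-0.73 ± 0.13, adjusted p = 0.0164; -0.87 ± 0.13 against K14WT skin, adjusted p = 0.00661). Of 5 measured members of this list, 1 rose and 2 fell. The peptidase genes Ece1 and Cpxm2 did not pass (-1.15 ± 0.54, adjusted p = 0.358, and 0.19 ± 0.22, adjusted p = 0.789). Cpd, a carboxypeptidase of the secretory pathway outside the list, was at 6.71, 5.21 and 6.42 in K14-PTHrP skin, against 7.89, 7.77 and 7.47 in WT skin (-1.59 ± 0.33, adjusted p = 0.0314), and did not pass against K14WT skin (-0.68 ± 0.33, adjusted p = 0.452).

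The imprinted gene Nnat, neuronatin, a small membrane proteolipid, was at 10.73, 10.25 and 10.97 in K14-PTHrP skin, against 7.15, 7.47 and 7.88 in WT skin and 7.62, 6.65 and 6.71 in K14WT skin. The transgenic arrays lay clear of both wild-type skins. It was 8.88-fold higher than in WT skin (3.15 ± 0.30, adjusted p = 0.000112), and the difference from K14WT skin was 3.66 ± 0.30 (adjusted p = 4.12e-05). Of 8 measured imprinted genes it was the 1 that passed, and H19, at 13.16 to 13.37 in K14-PTHrP skin, against 13.11 to 13.26 in WT skin, differed by 0.10 ± 0.09 (adjusted p = 0.689). Fxyd6, a regulator of the sodium pump, was at 5.65, 5.48 and 5.91 in K14-PTHrP skin, against 3.98, 4.35 and 4.23 in WT skin. It rose 2.82-fold with no overlap (1.49 ± 0.16, adjusted p = 0.00028), and the difference from K14WT skin was 1.89 ± 0.16 (adjusted p = 4.12e-05). The WT skin levels lay near the array medians and the K14WT levels below them, so the size of either Fxyd6 difference is not exact. Clca3a1, a protein related to chloride channel regulators, rose 3.29-fold over WT skin (1.72 ± 0.31, adjusted p = 0.0151). Against K14WT skin its difference of 1.45 ± 0.31 did not pass (adjusted p = 0.0534).

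**Figure D2:**
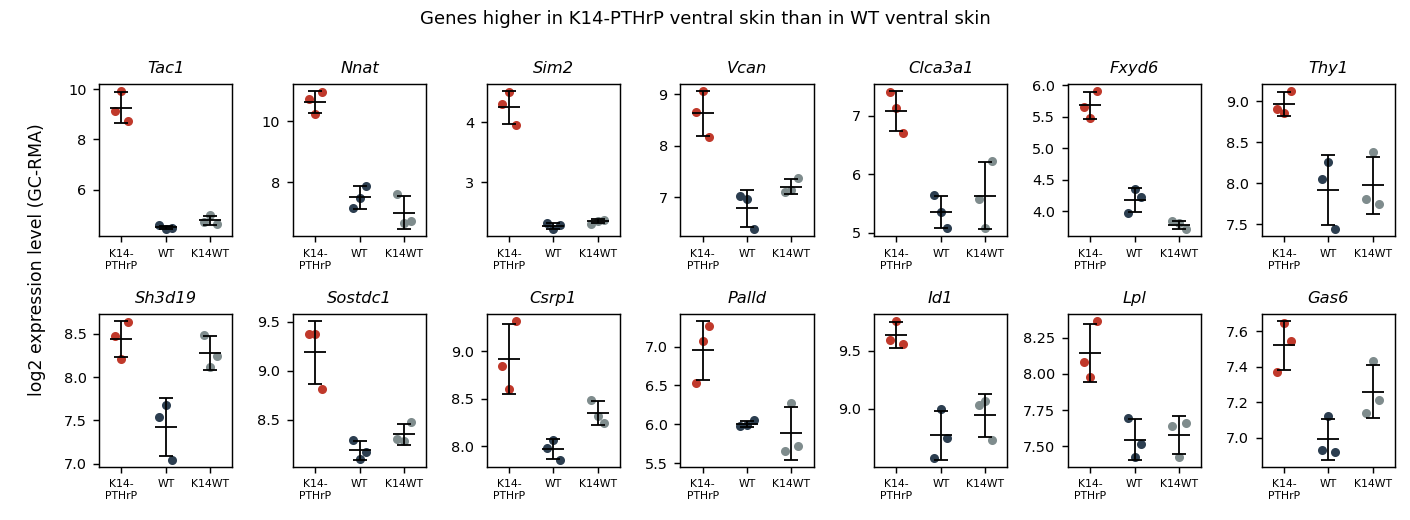
Each panel is a gene past the threshold as higher in K14-PTHrP skin, with log2 expression levels on the vertical axis, a point per array, and the mean with SD (n = 3) for K14-PTHrP, WT and K14WT skin; the vertical axes differ and do not start at 0. The 3 Tac1 points of K14-PTHrP skin sit between 8.74 and 9.95, and those of Sh3d19 sit among the points of K14WT skin.

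Of 15 measured genes of the mammary bud epithelium, 1 rose and none fell. Sim2, a transcription factor of the basic helix-loop-helix PAS family, was at 4.30, 4.49 and 3.95 in K14-PTHrP skin, against 2.32, 2.22 and 2.29 in WT skin. Both wild-type skins lay below the median of their arrays, so the size of the difference, 1.97 ± 0.25 (adjusted p = 0.00144), is not exact. Sim2 exceeded the array median only on arrays of K14-PTHrP skin and WT buds, through which it met the filter on dim signals. Buds were at 3.82 ± 0.72 in WT and 2.37 ± 0.04 in PTHrP-/- embryos. The median difference of the list was -0.36. The simple epithelial keratins Krt8 and Krt18 had differences of -0.70 ± 0.16 (adjusted p = 0.0531) and -0.79 ± 0.18 (adjusted p = 0.0507), and Elf5, an epithelial transcription factor, one of -0.68 ± 0.41 (adjusted p = 0.496).

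In the list of mammary mesenchyme and nipple skin, 2 of 9 measured members rose and none fell, with a median of 0.43. Among all named genes 0.745% were higher and 1.97% lower. Vcan, versican, a large proteoglycan of loose matrix, was at 8.66, 9.06 and 8.18 in K14-PTHrP skin, against 7.03, 6.96 and 6.37 in WT skin and 7.11, 7.14 and 7.38 in K14WT skin. All transgenic arrays were above all wild-type skin arrays. It rose 3.59-fold (1.84 ± 0.22, adjusted p = 0.000838), and by 1.43 ± 0.22 against K14WT skin (adjusted p = 0.0071). Sostdc1, the other, is described with the BMP genes. Tbx3, a transcription factor needed for mammary placodes, was at 5.34, 4.34 and 5.81 in K14-PTHrP skin, against 3.65, 4.04 and 4.03 in WT skin, a difference of 1.26 ± 0.29 that missed the threshold (adjusted p = 0.0562). The gelatinase Mmp2 differed by 0.23 ± 0.15 from WT skin (adjusted p = 0.52) and by 0.78 ± 0.15 from K14WT skin (adjusted p = 0.0279). Krt2, a keratin of ridged and nipple epidermis, differed by 0.43 ± 0.19 (adjusted p = 0.332).

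Among 7 measured genes of the BMP pathway 2 rose and 1 fell. Their median difference was 0.93, against -0.053 over all probe sets and -0.12 over all named genes. The median of their differences from K14WT skin was smaller, at 0.46. Id1, a direct BMP target that restrains basic helix-loop-helix factors, was at 9.59, 9.76 and 9.55 in K14-PTHrP skin, against 8.58, 8.996 and 8.75 in WT skin. The groups did not overlap, and Id1 rose 1.81-fold (0.86 ± 0.12, adjusted p = 0.00346; 0.69 ± 0.12 against K14WT skin, adjusted p = 0.0215). The related Id2, Id3 and Id4 had differences of 0.93 ± 0.32, 0.94 ± 0.21 and 1.28 ± 0.36 and did not pass (adjusted p = 0.21, 0.0505 and 0.12).

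Fst, follistatin, a secreted antagonist of the wider protein family, did not pass (0.11 ± 0.15, adjusted p = 0.835). Sostdc1, a secreted antagonist that binds BMPs and Wnt co-receptors, was at 9.37, 9.38 and 8.81 in K14-PTHrP skin, against 8.29, 8.11 and 8.17 in WT skin. It rose 1.99-fold without overlap (0.996 ± 0.14, adjusted p = 0.00305; 0.83 ± 0.14 against K14WT skin, adjusted p = 0.0135), and its other probe set gave 1.15 ± 0.16 (adjusted p = 0.00305).

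Of 7 measured Wnt pathway genes, Sostdc1 rose and Wif1 fell. Wif1, a secreted inhibitor that binds Wnt proteins, was at 5.58, 5.75 and 5.74 in K14-PTHrP skin, against 6.83, 6.37 and 6.85 in WT skin, with no overlap (-0.99 ± 0.18, adjusted p = 0.0168). Against K14WT skin its difference was -0.83 ± 0.18 and missed the threshold (adjusted p = 0.0635). Rspo1, a secreted amplifier of Wnt signalling, was at 6.83, 5.25 and 7.17 in K14-PTHrP skin, against 4.72, 4.87 and 5.17 in WT skin. The groups were close at their edges, and the difference of 1.4998 ± 0.36 did not pass (adjusted p = 0.0634), while that from K14WT skin, 2.03 ± 0.36, did (adjusted p = 0.0214).

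Ptch1, the hedgehog receptor and itself a target that hedgehog signalling raises, was the only measured member of the hedgehog list. It was at 7.11, 7.51 and 7.32 in K14-PTHrP skin, against 8.74, 8.81 and 8.67 in WT skin and 8.79, 8.55 and 8.92 in K14WT skin. Both wild-type skins lay together and well above every transgenic array. The fall was 2.7-fold from WT skin (-1.43 ± 0.12, adjusted p = 5.24e-05), and the difference from K14WT skin was -1.44 ± 0.12 (adjusted p = 4.12e-05). WT buds were at 7.83 ± 0.15 and PTHrP-/- buds at 8.23 ± 0.07.

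Of 32 measured genes of the extracellular matrix, Vcan rose and Ccn2 fell, and the median difference was -0.05. Ccn2, connective tissue growth factor, was at 3.86, 4.30 and 4.55 in K14-PTHrP skin, against 5.75, 5.82 and 5.91 in WT skin and 5.92, 5.94 and 5.95 in K14WT skin. No transgenic array came near a wild-type one, and Ccn2 fell 3.02-fold (-1.59 ± 0.14, adjusted p = 7.26e-05; -1.70 ± 0.14 against K14WT skin, adjusted p = 4.12e-05). The transgenic levels lay near the array medians, so the size of the fall is not exact. Its relatives Ccn3 and Ccn4 differed by -0.38 ± 0.24 (adjusted p = 0.517) and -0.83 ± 0.26 (adjusted p = 0.164).

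Vcam1, an adhesion receptor of endothelium and mesenchyme, was at 7.19, 6.86 and 7.30 in K14-PTHrP skin, against 9.11, 9.02 and 8.91 in WT skin and 8.84, 7.89 and 8.38 in K14WT skin. It fell 3.72-fold without overlap (-1.89 ± 0.20, adjusted p = 0.000322; -1.25 ± 0.20 against K14WT skin, adjusted p = 0.0112). Its other probe set did not show this (-0.28 ± 0.29, adjusted p = 0.751). That probe set was dim, at 4.31 ± 0.32 in WT skin and 4.03 ± 0.22 in K14-PTHrP skin (SD). Its levels lay near the array medians, and whether it could show a fall of that size was not tested. Vcam1 was the 1 of 8 measured endothelial markers that passed. With Vcam1 and Ramp2 included, their summed linear level was 1314 to 1750 in K14-PTHrP skin, against 1963 to 2439 in WT skin. The sums of the K14WT arrays, 1368 to 1939, overlapped the transgenic ones and stayed below every WT skin array. The median difference of these markers was 0.09, with 5 positive and 3 negative, and their median against K14WT skin was 0.23. The part of endothelial cells in the Vcam1 result was not tested.

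Smoc2, a secreted calcium-binding matrix protein, was 2.59-fold lower than in WT skin (-1.37 ± 0.15, adjusted p = 0.000304), but its difference from K14WT skin was -0.52 ± 0.15 (adjusted p = 0.187). Its other probe set gave -0.89 ± 0.23 (adjusted p = 0.0877). Htra1, a secreted serine protease, was at 7.22, 7.53 and 7.92 in K14-PTHrP skin, against 8.58, 8.77 and 8.28 in WT skin (-0.99 ± 0.20, adjusted p = 0.0264), and its other probe set gave -0.49 ± 0.12 (adjusted p = 0.0729). Against K14WT skin its difference of -0.68 ± 0.20 did not pass (adjusted p = 0.212), and the call against WT skin held in 11 of 18 alternatives. It was the 1 of 6 measured metalloproteinases, inhibitors and related proteases that passed.

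Among 15 measured markers of dermal fibroblasts 1 rose and 1 fell. Thy1, a surface glycoprotein of fibroblasts, was at 8.90, 8.86 and 9.13 in K14-PTHrP skin, against 8.05, 8.26 and 7.44 in WT skin. It rose 2.07-fold without overlap (1.05 ± 0.20, adjusted p = 0.0221; 0.98 ± 0.20 against K14WT skin, adjusted p = 0.0443). Crabp1, a retinoic acid-binding protein of embryonic dermis, was 2.04-fold lower than in WT skin (-1.03 ± 0.21, adjusted p = 0.0264), but differed from K14WT skin by -0.25 ± 0.21 (adjusted p = 0.618). Lpl, lipoprotein lipase and the 1 of 8 measured adipocyte markers that passed, rose 1.51-fold (0.60 ± 0.11, adjusted p = 0.0219), and by 0.57 ± 0.11 against K14WT skin (adjusted p = 0.0417).

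Palld, an actin scaffold protein, was at 6.53, 7.07 and 7.26 in K14-PTHrP skin, against 5.98, 5.99 and 6.05 in WT skin. It rose 1.93-fold without overlap (0.95 ± 0.20, adjusted p = 0.0325; 1.07 ± 0.20 against K14WT skin, adjusted p = 0.0249). The call against WT skin held in 11 of 18 alternatives. Csrp1, a LIM protein of the cytoskeleton, and Gas6, a secreted ligand of the TAM receptor kinases, rose by 0.95 ± 0.15 (adjusted p = 0.00663) and 0.53 ± 0.11 (adjusted p = 0.0325) over WT skin. Against K14WT skin their differences were 0.57 ± 0.15 (adjusted p = 0.151) and 0.26 ± 0.11 (adjusted p = 0.39).

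**Figure D3:**
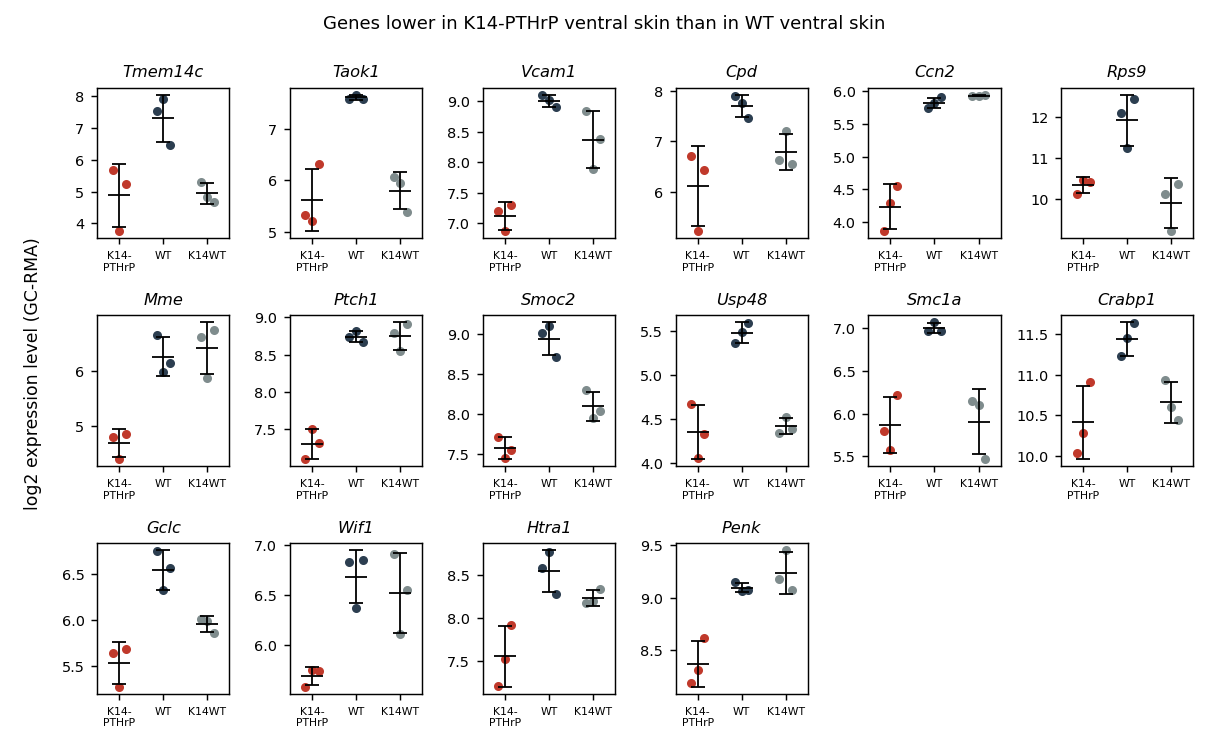
Each panel is a named gene past the threshold as lower in K14-PTHrP skin, with log2 expression levels on the vertical axis, a point per array, and the mean with SD (n = 3) for K14-PTHrP, WT and K14WT skin; the vertical axes differ and do not start at 0. The K14WT points of Ptch1, Ccn2 and Mme lie with WT skin, and those of Tmem14c, Taok1, Usp48 and Smc1a lie with K14-PTHrP skin.

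Several of the lower genes followed the choice of wild-type skin. K14WT minus WT skin is the gap between the comparisons against either wild-type skin, so its p tests whether that choice changed a difference, and 604 probe sets passed in it (5.22%), 72 higher (0.623%) and 532 lower (4.6%). The split depended on the scaling, with 187 higher and 325 lower after centring each array on its median, and 139 higher and 318 lower after quantile normalization. With the 9 skin arrays alone 2 passed, both higher, and with the 6 arrays of WT and K14WT skin alone 583 passed (106 higher, 477 lower). Among the named genes 10.4% passed there, 0.958% higher and 9.48% lower. In K14-PTHrP minus K14WT skin 84 probe sets passed (0.726%), 61 higher (0.528%) and 23 lower (0.199%), and among the named genes 1.92% passed, 1.22% higher and 0.692% lower. These comparisons share arrays, so their values stand side by side only. The genes named by rule were chosen by their distance from the same WT skin arrays, which favours a gap in K14WT minus WT skin.

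Tmem14c, a mitochondrial membrane protein of heme synthesis, was at 5.67, 3.75 and 5.22 in K14-PTHrP skin, against 7.54, 7.90 and 6.45 in WT skin and 5.31, 4.83 and 4.69 in K14WT skin. It was 5.34-fold lower than in WT skin (-2.42 ± 0.45, adjusted p = 0.0175), while the difference from K14WT skin was -0.06 ± 0.45 (adjusted p = 0.965). The kinase gene Taok1 was 4.03-fold lower than in WT skin (-2.01 ± 0.26, adjusted p = 0.00144) and differed from K14WT skin by -0.19 ± 0.26 (adjusted p = 0.78). The ubiquitin protease gene Usp48 and the cohesin gene Smc1a were lower than in WT skin by -1.14 ± 0.15 (adjusted p = 0.00147) and -1.13 ± 0.19 (adjusted p = 0.0109), with -0.07 ± 0.15 and -0.04 ± 0.19 against K14WT skin.

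The ribosomal protein gene Rps9, read by a probe set of a type whose probes can also match other transcripts, was at 10.12, 10.47 and 10.41 in K14-PTHrP skin, against 12.09, 11.23 and 12.44 in WT skin and 10.11, 9.21 and 10.37 in K14WT skin. Its difference was -1.59 ± 0.29 from WT skin (adjusted p = 0.0175) and 0.44 ± 0.29 from K14WT skin (adjusted p = 0.54). Gclc, of glutathione synthesis, was 2.0-fold lower than in WT skin (-1.003 ± 0.17, adjusted p = 0.0132), with -0.42 ± 0.17 against K14WT skin (adjusted p = 0.387). Its K14WT minus WT skin difference did not pass (-0.59 ± 0.17, adjusted p = 0.0653). Of the higher genes named by rule, only Sh3d19, an adaptor protein, passed in K14WT minus WT skin (0.86 ± 0.22, adjusted p = 0.0399). Its difference was 1.02 ± 0.22 from WT skin (adjusted p = 0.0392) and 0.16 ± 0.22 from K14WT skin (adjusted p = 0.777).

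**Figure D4:**
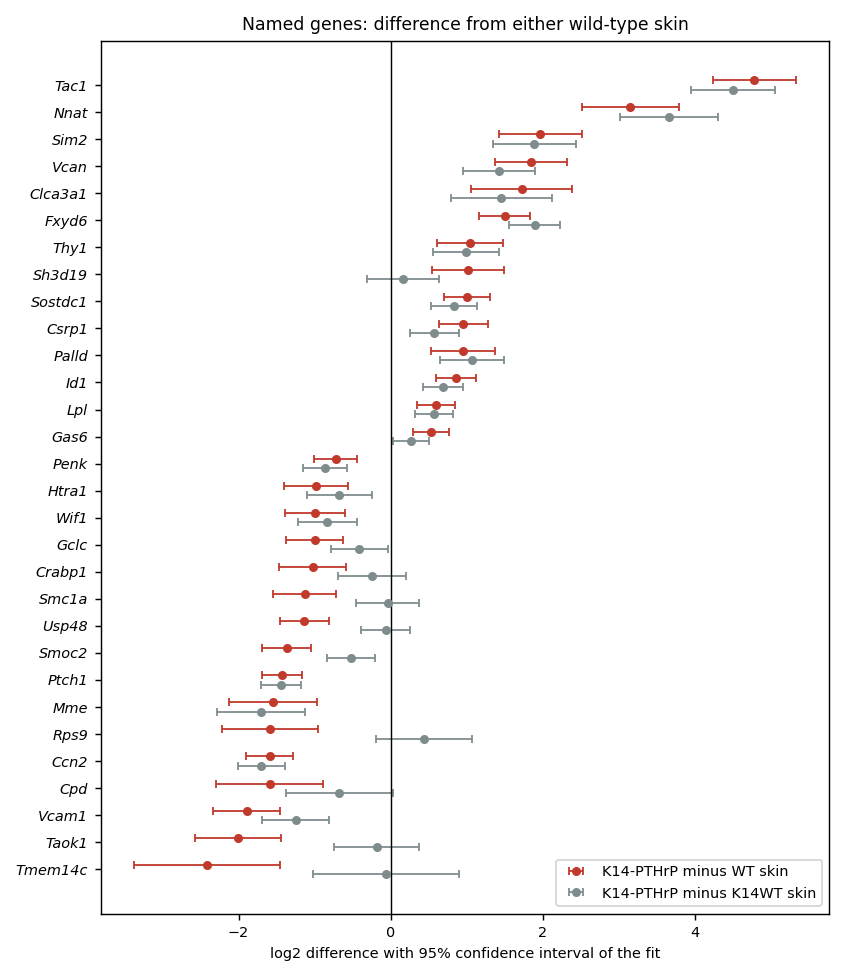
The horizontal axis gives log2 differences with 95% confidence intervals of the fit for 30 of the 31 genes past the threshold that the naming rule selected, K14-PTHrP minus WT skin in red and K14-PTHrP minus K14WT skin in grey, both from the same 3 K14-PTHrP arrays. Tac1, Nnat, Ptch1 and Ccn2 lie far from 0 against either skin, while the grey points of Tmem14c, Usp48 and Smc1a lie at -0.06, -0.07 and -0.04.

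Among the 90 probe sets without a name, 1454714_x_at had the largest rise over WT skin, 3.73 ± 0.22 (adjusted p = 8.8e-07), but it was at 7.41 ± 0.59 in K14-PTHrP skin, against 3.68 ± 0.01 in WT skin and 7.40 ± 0.17 in K14WT skin. The WT skin levels lay below the median of their arrays, so the size of the rise is not exact. The next, 1418507_s_at, was at 6.996 ± 0.21 in K14-PTHrP skin, against 4.19 ± 0.15 in WT skin and 4.29 ± 0.22 in K14WT skin. It was higher by 2.80 ± 0.14 (adjusted p = 4.2e-07), and by 2.70 ± 0.14 against K14WT skin (adjusted p = 7.34e-07).

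Markers of other cell types that skin can hold did not pass. None of 20 measured skeletal muscle genes passed, although 19 had positive differences, with a median of 0.37. Their summed linear level was 13790 to 23570 in K14-PTHrP skin, against 11250 to 17730 in WT skin, with 19910 to 27290 on the K14WT arrays. None of 6 leukocyte, 4 erythroid, 2 melanocyte and 5 smooth muscle markers passed, nor did Col9a1, the 1 cartilage gene measured (-0.91 ± 0.35, adjusted p = 0.249), and no nerve marker on the list had a kept probe set. The lists of 10 immediate early and stress genes, 13 cell cycle genes and 3 genes of androgen and estrogen response also held no member past the threshold. Of 12 measured growth factor and retinoid genes, Crabp1 alone passed. Over the 27 lists, 17 different genes passed, against 51 of all 1878 named genes (2.72%).

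**Figure D5:**
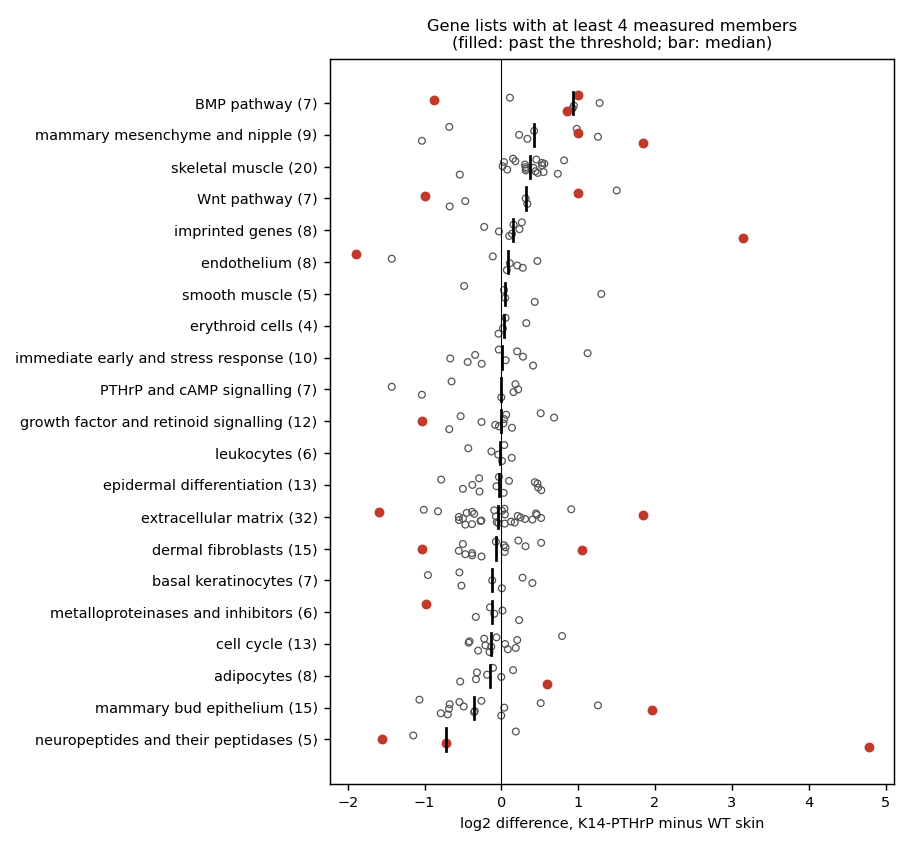
Each row is a gene list with at least 4 measured members (number in brackets), and the horizontal axis gives the log2 difference, K14-PTHrP minus WT skin, of each member; filled points passed the test and the bar is the median. The BMP list has a median of 0.93, and the lists for skeletal muscle and epidermal differentiation hold no filled point.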

How the data were processed

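RNA was measured on 15 Affymetrix MOE430A arrays, 3 for each of 5 groups. The deposited table holds log2 expression levels of 22690 probe sets (64 controls), made by the authors with GC-RMA per the file headers. The submitters' processing notes list MAS5 and affy too, with no version. The 4 deposited lists were used for names alone. Of 2416 annotated probe sets, 2323 were matched by gene ID to a RefSeq gene table of GRCm38.p6, and 754 symbols were updated. The median of an array lay between 3.86 and 4.05, and the values were normalized no further.

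A probe set was kept if it was no control and exceeded the median of the array on 3 or more of the 15 arrays (11690). Of these, 127 were left out because the WT skin arrays lay over 0.5 log2 units from all 12 others, a rule set after the data were seen. A model of 5 group means was fitted with limma 3.58.1 under R 4.3.3 (lmFit and eBayes, with 10 residual and 3.11 prior degrees of freedom and a prior SD of 0.167). Its tests were two-sided, with Benjamini-Hochberg adjustment over 11563 probe sets in each comparison and a threshold of 0.05. The fit takes its spread from all 15 arrays, so an SE can be too small for K14-PTHrP skin, whose arrays vary more. The script was tested on simulated data. The number of arrays limits the precision. Tables and plots were made in Python 3.11.15 with pandas 2.3.3 and matplotlib 3.10.9.

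The rule for genes named in the text took up to 14 rises and 14 falls of the largest size among named genes past the threshold without overlap, up to 4 members of each list past the threshold, and Pthlh and Pth1r, 33 genes in all, 1 of which is not reported here. Promoter windows were found for 22 of them. Other genes are named to describe their list, a choice made after seeing the values. The members and lists were chosen with earlier results of these data known.

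Replicate numbers are shared between groups. Deviations of same-numbered K14-PTHrP and WT skin arrays correlated at 0.039, 0.084 and 0.244, so the numbers were not taken to pair the arrays. Alternatives covered the filter, the normalization, the arrays in the fit, the prior, the probe sets left out, the reference, the block and each array left out.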

Additional observations from a re-analysis of the deposited data

Results flagged for a closer look

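For 8 of the 31 genes past the threshold that the naming rule selected, the difference from WT skin and the difference from K14WT skin were themselves different, by the test of K14WT minus WT skin in the same limma fit. In that test 5.22% of all probe sets and 10.4% of named genes passed. The rule chose the genes by their distance from the same WT skin arrays, which favours a gap in this test, so the count of 8 carries no weight of its own. Sh3d19 was 0.86 ± 0.22 higher in K14WT than in WT skin on the log2 scale (SE, n = 3 per group, adjusted p = 0.0399). The other 7 were lower in K14WT skin. Tmem14c differed by -2.36 ± 0.45 (adjusted p = 0.0148), Rps9 by -2.02 ± 0.29 (adjusted p = 0.00489) and Taok1 by -1.82 ± 0.26 (adjusted p = 0.00489). Smc1a differed by -1.09 ± 0.19 (adjusted p = 0.0115), Usp48 by -1.07 ± 0.15 (adjusted p = 0.00476), Smoc2 by -0.85 ± 0.15 (adjusted p = 0.0111) and Crabp1 by -0.78 ± 0.21 (adjusted p = 0.0448). In a fit of the 9 skin arrays alone 2 probe sets passed in K14WT minus WT skin, both higher, so none of these 7 calls held there. In a fit of the 6 arrays of WT and K14WT skin alone, 583 passed (106 higher, 477 lower).

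The WT skin arrays lay more than 0.5 log2 units from all 12 other arrays at 134 probe sets, which stood outside the comparison. Taken probe set by probe set, WT and K14WT skin differed there by a median of 3.78 log2 units, while their sorted levels over the same probe sets differed by a median of 0.111. Whether the WT skin values at these probe sets are assigned to the right identifiers was not tested. Of these probe sets, 19 had a name.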

How the results depend on the processing

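Tac1, Nnat, Sim2, Vcam1 (by its brightest probe set) and Ptch1 passed in every alternative that tested them. Sim2 was left out by the filter of 6 or more arrays above the median, and passed without a filter (adjusted p = 0.00546). All 31 genes past the threshold that the naming rule selected passed with quantile normalization and with centred arrays. They also passed with the left-out probe sets put back and without K14-PTHrP replicate 3. Putting probe sets back raised the calls from 148 to 375, and leaving out replicate 3 raised them to 1508. A pass in those settings therefore says little about a gene. No direction was reversed. Of the 31, 22 passed against the mean of both wild-type skins and 18 to 21 without a WT skin array. The calls that held least often were those of Crabp1 (8 of 17 alternatives) and Sh3d19 (10 of 18). Cpd, Gas6, Htra1 and Palld followed with 11 of 18 each. The numbers of probe sets called (148, 48 higher and 100 lower), of named genes (51) and of list members (17) depended most on the arrays in the fit. With the 6 arrays of the 2 groups alone, 8 passed (6 and 2), with 5 named genes and 5 list members. With the 9 skin arrays, 36 passed (20 and 16), with 13 and 7. With the left-out probe sets put back, 375 passed (134 and 241), with 95 named genes. Against the mean of both wild-type skins, 77 passed (46 and 31), with 33 named genes. Leaving out each array in turn gave 63 to 1508 probe sets (30 to 405 higher, 32 to 1103 lower), 21 to 363 named genes and 11 to 47 list members, and Pth1r differences of -1.47 to -0.78. The cause of these changes was not tested, beyond the fewer arrays in some fits.

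Against K14WT skin, the count of 84 became 7 with 2 groups, 22 with the 9 skin arrays and 49 to 212 with an array left out. For K14WT minus WT skin, the count of 604 (72 higher, 532 lower) split as 187 and 325 with centred arrays and as 139 and 318 with quantile normalization. It became 306 without the filter, 583 with 2 groups, 2 with the 9 skin arrays (both higher) and 95 to 1038 with an array left out. With the replicate number as a block, 173 probe sets passed in K14-PTHrP minus WT skin (52 higher, 121 lower). Bounds of 0.25 and 1 log2 units for the probe sets left out, chosen after seeing the data, gave 138 and 166 calls. Levels below an array's median limit the size of differences for Sim2, Pthlh, Col9a1 and the unnamed probe set with the largest rise, and for Fxyd6 against K14WT skin. Levels near the array medians limit it for Ccn2 and, among others, for Tac1 and Fxyd6 against WT skin.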
